A study of Homo sapiens with 6 samples.

Results

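T98G, a human glioblastoma cell line, was profiled by sequencing poly(A)-selected RNA from 3 libraries carrying a short hairpin RNA against SLC1A5 (shSLC1A5) and 3 libraries carrying a control hairpin (shControl), and 10 long noncoding RNAs are described here. They are MALAT1 and NEAT1, which stay in the nucleus; H19, which is imprinted; MIR210HG, which is linked to hypoxia; and GAS5, SNHG1, SNHG5, SNHG12, ZFAS1 and EPB41L4A-AS1, whose introns carry small nucleolar RNAs (snoRNAs). They were picked by gene name from the 35750 genes listed, with the differences between these same libraries already known, so their levels, fold changes and intervals, and whether each passed the threshold of the fit over all genes, are given as a description, with no p-value. All 10 were among the 11841 genes that were tested, those whose FPKM (fragments scaled to gene length and library size) averaged 1 or more across all 6 libraries. All libraries came from the same cell line, grown in DMEM with serum, and the labels give neither the hairpin sequences, nor the time after their delivery, nor whether the 3 libraries of a group were separate cultures, so p-values rest on the spread among 3 libraries that may be technical repeats.

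Long noncoding RNAs are transcripts without a long open reading frame, and these 10 act in different places. MALAT1 lies in nuclear speckles, which store splicing factors, and NEAT1 is the scaffold of paraspeckles, nuclear bodies that hold RNA-binding proteins. A snoRNA host gene makes a spliced transcript whose introns are trimmed to snoRNAs, the guides for methylation or pseudouridylation of ribosomal RNA, while the joined exons are often short-lived because translation exposes them to nonsense-mediated decay. H19 is made from the maternal allele next to IGF2 and carries the precursor of miR-675, and MIR210HG is the transcript around miR-210, a microRNA that the hypoxia-inducible factor HIF-1 induces in many cell types.

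The libraries held 70802167, 67759692 and 66998312 counts in shSLC1A5 and 63420773, 62858288 and 59327548 counts in shControl. SLC1A5, the glutamine carrier the hairpin targets, averaged 87.9 ± 0.407 FPKM in shSLC1A5 and 95.8 ± 1.15 FPKM in shControl (SD, n = 3 each) and thus fell by 9.02% (log2 fold change -0.14, edgeR quasi-likelihood adjusted p = 0.000193); the log2 fold change was -0.34 once trends with GC content and transcript length were removed from each library. Each direction below compares libraries by their label. Of 11 glioma markers listed, the mesenchymal transcripts VIM, CD44, SPARC and S100A6 were abundant in every library. TNC averaged 15.6 FPKM in shSLC1A5 and 19.1 FPKM in shControl. CHI3L1, another mesenchymal marker, averaged only 0.597 FPKM in shSLC1A5 and 0.168 FPKM in shControl. The glial and stem cell markers GFAP, NES and OLIG2 averaged 0.0193, 0.185 and 0.729 FPKM in shSLC1A5. In shControl they averaged 0.0204, 0.0959 and 0.741 FPKM. SOX2 and S100B were at 0 in every shSLC1A5 library. SOX2 had 8, 7 and 10 counts in shControl replicates 1, 2 and 3, and S100B had 3, 0 and 0. Transcripts of blood cells stood out in the shSLC1A5 libraries. In shSLC1A5 replicates 1, 2 and 3 the 11 leukocyte markers other than CD74 summed to 5261, 654 and 1031 counts. In shControl they summed to 50, 65 and 77 counts. With CD74 the sums were 2097 to 6714 counts in shSLC1A5 and 1886 to 1952 counts in shControl. S100A8, S100A9 and LYZ had 2301, 830 and 508 counts in shSLC1A5 replicate 1 and at most 19 counts in replicates 2 and 3. IGHM had 729, 378 and 688 counts in shSLC1A5 replicates 1, 2 and 3. CD3E and MPO were at 0 in all 6 libraries, and IGHM and MS4A1 at 0 in every shControl library. Of the 12 markers, 5 were higher in all 3 shSLC1A5 libraries than in any shControl library, beside 27.3% of tested genes. CD74, the invariant chain of class II antigen presentation, is kept apart because it makes up most of the shControl sum, and it went the other way: it averaged 3.97 ± 0.184 FPKM in shSLC1A5 and 5.60 ± 0.254 FPKM in shControl (SD, n = 3 each; log2 fold change -0.51, edgeR adjusted p = 8.07e-05). The 4 red cell markers found summed to 779, 20 and 7 counts in shSLC1A5 and to 5, 6 and 0 counts in shControl, and 773 of the 779 counts of shSLC1A5 replicate 1 were of ALAS2, with both alpha globin genes, HBA1 and HBA2, at 0 in that library. In bulk RNA, fewer cells that make a transcript and less of it per cell cannot be told apart.

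The 4 members that are not snoRNA hosts were all higher in shSLC1A5, and the 6 snoRNA hosts lay close to their shControl levels. On the log2 scale the fold changes of shSLC1A5 over shControl were 2.18 for H19, 1.44 for MIR210HG, 0.39 for NEAT1 and 0.29 for MALAT1, and ran between -0.19 and 0.15 in the 6 hosts. In the edgeR fit over all genes, 4 members were higher at an adjusted p under 0.05, 2 were lower and 4 did not pass; 39.2% of all tested genes passed, 20.2% higher and 19% lower. A second fit removed the trends of each library with GC content and transcript length (the GC correction); under it 26.3% of tested genes passed, and of the members 6 were higher and 2 lower. Without it, an absolute log2 fold change of 1 or more was reached by 2 members and by 0.853% of tested genes. For 7 of the 10 members all 3 FPKM values of a group lay to the same side of the other group's, which was so for 49.6% of tested genes. The members were chosen with these values known, so nothing is read from these counts.

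**Figure D1:**
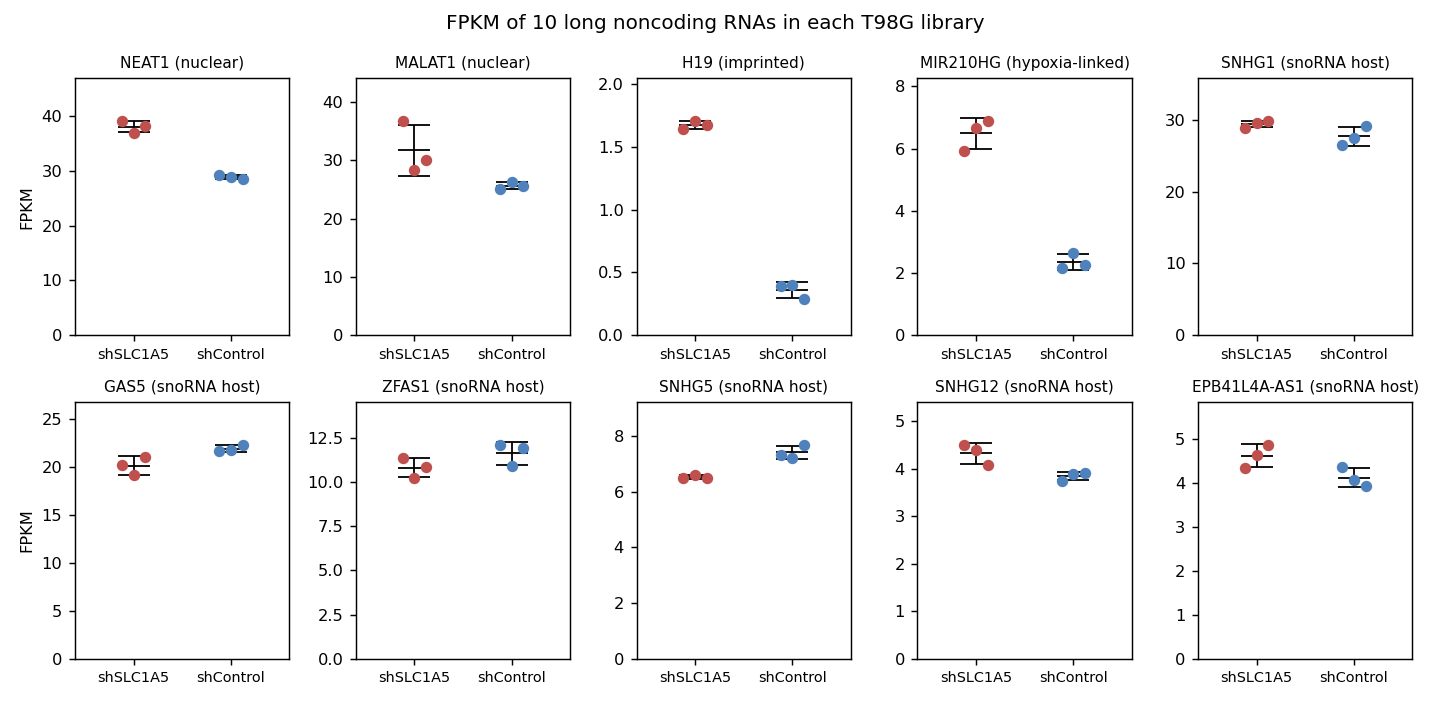
FPKM (vertical axes, each from 0) of the 10 long noncoding RNAs in the 3 shSLC1A5 libraries (red) and the 3 shControl libraries (blue); points are libraries 1 to 3 from left to right, the long bar is the mean and the caps are 1 SD. The points of NEAT1, MALAT1, H19 and MIR210HG lie higher in shSLC1A5 with no overlap, and those of SNHG1, ZFAS1 and EPB41L4A-AS1 overlap.

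As a share of all counts the 10 RNAs together took 0.1875%, 0.1713% and 0.1777% of the shSLC1A5 libraries and 0.1503%, 0.149% and 0.1493% of the shControl libraries. Most of it came from NEAT1 and MALAT1, which together averaged 0.129 ± 0.00755% in shSLC1A5 and 0.0993 ± 0.00129% in shControl (SD, n = 3 each). The 6 hosts together averaged 0.0476 ± 0.000904% in shSLC1A5 and 0.0494 ± 0.00125% in shControl. Not all 10 were abundant: among the 601 tested genes that the table types as long noncoding, NEAT1 was 8th and MALAT1 11th by mean FPKM, SNHG1 12th, GAS5 17th and ZFAS1 24th, whereas MIR210HG was 83rd and H19 577th.

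The order of abundance among the members depended on the length used for scaling. By FPKM, the order in shSLC1A5 was NEAT1, MALAT1, SNHG1, GAS5, ZFAS1, SNHG5, MIR210HG, EPB41L4A-AS1, SNHG12 and H19. In shControl, SNHG1 stood above MALAT1 and MIR210HG stood below SNHG12; in shControl the ranges of NEAT1 and SNHG1 overlapped. In shSLC1A5 those of MALAT1 and SNHG1, of SNHG5 and MIR210HG, and of EPB41L4A-AS1 and SNHG12 overlapped, so these neighbours in the order are not separated by their spread. Dividing counts by FPKM and by the total counts of the library gave an apparent length of 14211 bases for SNHG5 and 9353 bases for ZFAS1. These are 5.06 and 4.17 times the summed exons of these genes in GENCODE 29 (2806 and 2243 bases). The ratio was 1.5 for GAS5, 1.31 for EPB41L4A-AS1 and 1.12 to 1.19 for the other members. For NEAT1 the apparent length, 25588 bases, exceeded the 22767 bases of the gene. The library total behind the deposited FPKM is not known, so the apparent lengths are not exact gene lengths. Only their ratios can be compared between members. Per kilobase of GENCODE 29 exon, scaled to the library total, ZFAS1 had the highest mean in both groups, with 45.1 ± 2.48 in shSLC1A5 and 48.5 ± 2.82 in shControl (SD, n = 3 each). SNHG5 reached 33.1 ± 0.260 in shSLC1A5 and 37.6 ± 1.13 in shControl. In shSLC1A5 the ranges of ZFAS1 (42.59 to 47.54) and NEAT1 (41.41 to 44.15) overlapped on this scale. Any counted fragments outside the GENCODE 29 exons would raise these values, and their share was not tested. A gene's length is the same in all 6 libraries, so fold changes do not depend on this choice.

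**Figure D2:**
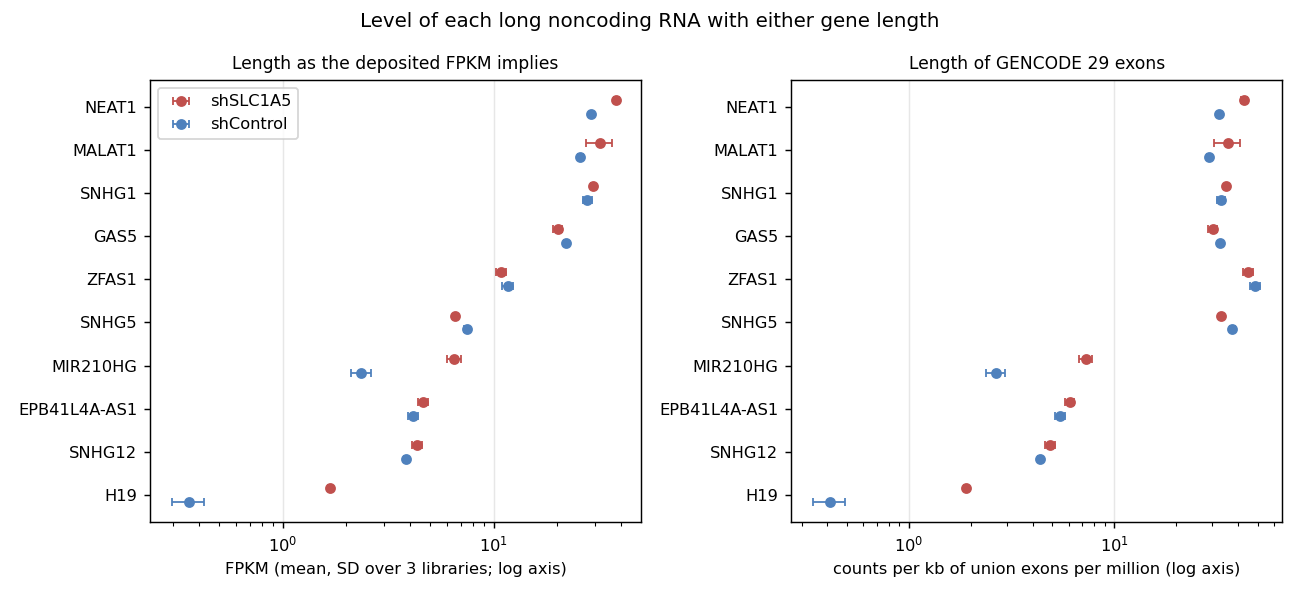
Level of each RNA (log axes) in shSLC1A5 (red) and shControl (blue), mean and SD over 3 libraries, as deposited FPKM on the left and as counts per kilobase of GENCODE 29 union exons, scaled to the library total, on the right. ZFAS1 and SNHG5 move up on the right, ZFAS1 to 45.1 in shSLC1A5 and 48.5 in shControl, and H19 is lowest on both scales.

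MIR210HG (chr11:565660-568457, minus strand, GRCh38) gave 1102, 1175 and 1200 counts in shSLC1A5 and 362, 436 and 349 counts in shControl. In FPKM these were 5.92, 6.66 and 6.88 in shSLC1A5 and 2.17, 2.65 and 2.25 in shControl. Each shSLC1A5 library was well above the highest shControl library, and the level was 2.72 times that of shControl (95% interval 2.30 to 3.22; log2 fold change 1.44, SE 0.11). By fold change it ranked 5th of the 601 tested long noncoding genes, and 0.321% of all tested genes had a log2 fold change at least as high.

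The microRNA row inside MIR210HG moved in the same direction. MIR210 (chr11:568089-568198, 110 bases) lies within MIR210HG and in no exon of its 4 GENCODE 29 transcripts. It had 21, 24 and 20 counts in shSLC1A5 and 4, 2 and 6 counts in shControl, a log2 fold change of 2.24 (SE 0.46, edgeR adjusted p = 0.00291). These are long poly(A) fragments that fall on the hairpin precursor, not the mature microRNA, which these libraries do not capture; the row also passed the filter of 1 FPKM through its shSLC1A5 libraries, since its mean in shControl was 0.464 FPKM. Because MIR210 sits within its host on the same strand and outside the exons, its fragments and unspliced MIR210HG cannot be told apart.

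The mature microRNAs are shown because they are the known products of the 2 strongly higher members, miR-210 of MIR210HG and miR-675 of H19. They are taken from RefSeq (GRCh38.p14), written 5′ to 3′ with the seed (bases 2 to 8) in capitals, and no seed is shared among the 4.
hsa-miR-210-3p: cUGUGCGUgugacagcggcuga
hsa-miR-210-5p: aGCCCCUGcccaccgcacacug
hsa-miR-675-5p: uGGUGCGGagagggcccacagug
hsa-miR-675-3p: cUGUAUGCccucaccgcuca

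The start region of MIR210HG is shown because HIF-1 binds DNA at short core sequences, of which only the letters ACGTG were searched here. The window of 250 bases before the RefSeq start and 50 after it (chr11:568408-568707, minus strand, GRCh38.p14; the start is also that of the deposited table) holds 1 copy on either strand, in capitals, 170 bases before the start.
MIR210HG: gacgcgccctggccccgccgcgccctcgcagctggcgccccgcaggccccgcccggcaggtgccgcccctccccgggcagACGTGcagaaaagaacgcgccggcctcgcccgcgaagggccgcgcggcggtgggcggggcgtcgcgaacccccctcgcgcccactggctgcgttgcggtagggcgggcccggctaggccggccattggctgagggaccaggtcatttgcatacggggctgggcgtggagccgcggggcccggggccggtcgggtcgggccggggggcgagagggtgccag
Of 35116 such windows, 21.4% hold ACGTG on either strand, and among the 9 members with a window EPB41L4A-AS1 was the other one that did. A match of these letters is a description and not a binding site.

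Values of other hypoxia-linked noncoding genes lay on both sides of 0. Of 8 found in the table, 4 were tested: MIR210 rose, LINC01116 fell and LUCAT1 and MIR31HG did not pass. Over all tested genes 20.2% were higher and 19% lower. LINC01116, a noncoding RNA described in glioma, averaged 8.76 ± 0.633 FPKM in shSLC1A5 and 11.3 ± 0.737 FPKM in shControl (SD, n = 3 each; log2 fold change -0.38, edgeR adjusted p = 0.00189). LUCAT1 averaged 12.1 FPKM in shSLC1A5 and 10.4 FPKM in shControl (adjusted p = 0.0571 by edgeR), and MIR31HG 3.22 FPKM in shSLC1A5 and 4.05 FPKM in shControl (adjusted p = 0.108 by edgeR). LUCAT1 (log2 fold change 0.20) passed with the GC correction (0.26, edgeR adjusted p = 0.0217), with the replicate number as a block (0.20), with a filter of 5 FPKM (0.22) and without shSLC1A5 replicate 2 (0.29). MIR31HG (-0.34) passed with DESeq2 (-0.34, adjusted p = 0.0401) and without shSLC1A5 replicate 1 (-0.55). MIR210 did not pass when no filter on low values was used (adjusted p = 0.0657 by edgeR).

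Coding targets of HIF-1 rose together with MIR210HG. Of 19 tested, 18 rose and 0 fell, beside 20.2% of all tested genes higher and 19% lower. The median log2 fold change of the 19 was 0.46, against -0.01 over all tested genes. The list was chosen with earlier results of these data known. ANGPTL4, a secreted inhibitor of lipoprotein lipase, had a log2 fold change of 3.49 (SE 0.14), CA9, a carbonic anhydrase of the cell surface, 2.07 (SE 0.21), and DDIT4, an inhibitor of mTORC1, 1.09 (SE 0.043). ANGPTL4 and CA9 averaged 0.380 and 0.805 FPKM in shControl, so both passed the filter of 1 FPKM only through their shSLC1A5 libraries. The abundant glycolytic enzymes LDHA and PGK1 had 0.36 and 0.41, and the glucose transporter SLC2A1 had 0.37, all past the threshold. MIR210HG lay above 17 of these 19 by log2 fold change, at a level far below the abundant ones: LDHA averaged 434.6 ± 6.48 FPKM in shSLC1A5 (SD, n = 3). Known targets of miR-210 itself, which the microRNA represses, showed no common direction: of 8 tested, FGFRL1 and TFRC rose, NDUFA4 fell and 5 did not pass. With the GC correction FGFRL1 (log2 fold change 0.11) and NDUFA4 (-0.04) did not pass, and NDUFA4 passed in only 1 of the 6 fits that leave out a library, the one without shControl replicate 1.

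**Figure D3:**
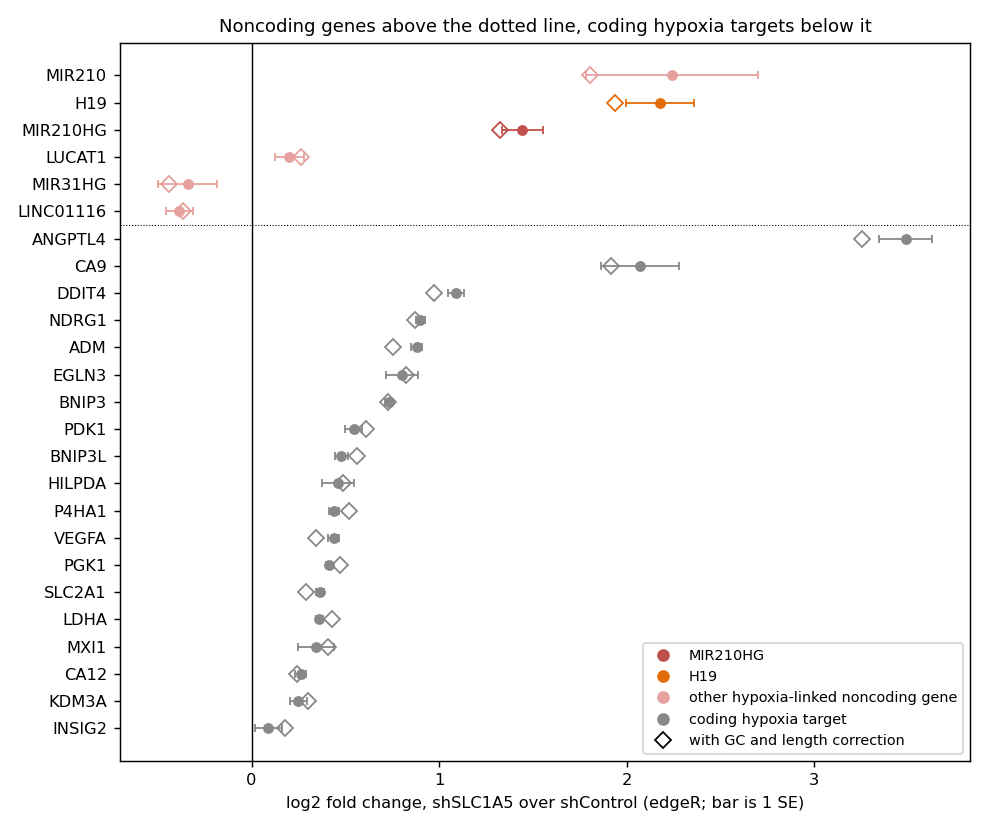
Log2 fold change of shSLC1A5 over shControl (horizontal axis; circles with 1 SE, open diamonds with GC and length corrected) for noncoding genes above the dotted line and coding HIF-1 targets below it. MIR210, H19 and MIR210HG stand at 2.24, 2.18 and 1.44, LINC01116 at -0.38, and 18 of the 19 coding targets passed the threshold, all on the right.

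H19 (chr11:1995176-2001470, minus strand, GRCh38) was the least abundant member and had the largest fold change of the 10. It gave 383, 379 and 367 counts in shSLC1A5 and 83, 84 and 57 counts in shControl. In FPKM it had 1.64, 1.71 and 1.68 in shSLC1A5 and 0.395, 0.398 and 0.289 in shControl. The groups were far apart, and the level was 4.52 times that of shControl (95% interval 3.43 to 5.97; log2 fold change 2.18, SE 0.18), the 2nd highest fold change of the 601 tested long noncoding genes. Its mean over the 6 libraries was 1.02 FPKM, so H19 passed the filter of 1 FPKM only through its shSLC1A5 libraries; a gene of this level that did not differ would not have been tested.

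The nearest tested genes around H19 and the other imprinted genes that were tested did not share its size of change. The row of MIR675, which lies in an exon of 4 of the 12 H19 transcripts, held at most 1 count in any library. IGF2, the reciprocally imprinted neighbour that encodes insulin-like growth factor 2, averaged 0.635 FPKM in shSLC1A5 and 0.519 FPKM in shControl, and CDKN1C, a cell cycle inhibitor in the next imprinted domain, 0.435 FPKM in shSLC1A5 and 0.390 FPKM in shControl; neither reached the filter. MRPL23, the nearest tested gene and 32338 bases away, had a log2 fold change of 0.43 (SE 0.069, edgeR adjusted p = 0.000686), and of 0.26 with the GC correction (edgeR adjusted p = 0.0229). CD81, the nearest tested gene on the other side and 374707 bases away, had 0.29, and -0.02 with the GC correction (edgeR adjusted p = 0.56). Of 14 imprinted genes found, 6 were tested: SLC22A18 rose, PEG10 and MEST fell and 3 did not pass. The rest lay below the filter, and their changes are not judged. Over all tested genes 20.2% were higher and 19% lower. With the GC correction 0 of the 6 rose and 3 fell, beside 1377 higher and 1743 lower of all 11841 tested genes. SLC22A18 (log2 fold change 0.38) did not pass with the GC correction (0.16), without shControl replicate 1 (0.27) or without shSLC1A5 replicate 3 (0.30). PEG10, a gene of retrotransposon origin that is made from the paternal allele, averaged 21.8 ± 0.423 FPKM in shSLC1A5 and 27.0 ± 0.359 FPKM in shControl (SD, n = 3 each; log2 fold change -0.32, edgeR adjusted p = 2.24e-06). IGF2BP2 and IGF2BP3, proteins that bind IGF2 and H19 RNA, fell with log2 fold changes of -0.23 and -0.13, and IGF2BP3 did not pass with the GC correction (-0.06).

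The genes with profiles nearest to those of MIR210HG and H19 were found by the Euclidean distance between log2(FPKM + 1) profiles over the 6 libraries, each centred on its mean. Adding 1 shrinks differences of low levels, so that H19 had a log2 fold change of 0.98 on this scale. The 3 nearest of all tested genes to MIR210HG were DDIT4 (distance 0.167), STC1, a secreted glycoprotein hormone (0.212), and PLIN2, a coat protein of lipid droplets (0.253). The 3 nearest to H19 were ADM, a vasodilator peptide (0.135), DDIT4 (0.146) and NDRG1 (0.176). With only 2 groups, a profile holds little more than the difference between the groups, so closeness on this scale mostly reflects differences of like size.

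NEAT1 (chr11:65422774-65445540, plus strand, GRCh38) was the most abundant member by FPKM. It had 39.0, 37.0 and 38.2 FPKM in shSLC1A5 and 29.2, 28.9 and 28.4 FPKM in shControl, with no overlap and little spread within a group. The level was 30.8% higher (95% interval 26.0% to 35.8%; log2 fold change 0.39, SE 0.024). The counts, 71167, 63887 and 65270 in shSLC1A5 and 47687, 46417 and 43019 in shControl, made it the deepest measured of the 10. The table has 1 row for the gene, so the short polyadenylated NEAT1 and the long form that builds paraspeckles were not separated.

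MALAT1 (chr11:65497688-65506469, plus strand) lies 52148 bases downstream of NEAT1. It had 36.7, 28.4 and 30.1 FPKM in shSLC1A5 and 25.1, 26.4 and 25.6 FPKM in shControl. All shSLC1A5 libraries were above all shControl libraries, but shSLC1A5 replicate 1 stood well above replicates 2 and 3, and the coefficient of variation was 13.8% in shSLC1A5 and 2.56% in shControl. The level was 22.7% higher (95% interval 9.22% to 37.8%; log2 fold change 0.29, SE 0.076), and without shSLC1A5 replicate 1 the log2 fold change was 0.17. That library also held the highest sum of leukocyte markers, 5261 counts without CD74, and 773 counts of ALAS2, and their part in its MALAT1 level was not tested. NEAT1 without the same library had a log2 fold change of 0.36, H19 of 2.19 and MIR210HG of 1.5.

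The 3 tested genes nearest to the MALAT1 profile were COMTD1 (distance 0.0975), FCGR2A (0.105) and the microRNA row MIR570 (0.108). FCGR2A encodes an immunoglobulin Fc receptor of myeloid cells and averaged 1.32 FPKM in shSLC1A5 and 0.821 FPKM in shControl. It was not in the list of leukocyte markers.

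MALAT1 has no ordinary poly(A) tail: its 3′ end is cut by RNase P upstream of a tRNA-like RNA and folds into a triple helix around an A-rich tract encoded in the genome. The last bases before the tRNA-like RNA are shown because the libraries were captured on oligo(dT), with the longest run of A in capitals (chr11:65506057-65506116, plus strand, GRCh38, from the GENCODE 29 transcript).
MALAT1: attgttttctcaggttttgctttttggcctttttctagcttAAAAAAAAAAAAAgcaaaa
The run is 13 bases long. How far the capture of this tract differed between libraries was not measured.

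Proteins of the bodies that hold NEAT1 and MALAT1 moved by small amounts. Of 14 paraspeckle and speckle proteins tested, 6 rose, 1 fell and 7 did not pass, beside 20.2% of all tested genes higher and 19% lower, with a median log2 fold change of 0.05. DAZAP1, an RNA-binding protein of paraspeckles, had a log2 fold change of 0.30 (SE 0.034, edgeR adjusted p = 5.08e-05), SRSF2, a splicing factor of speckles, 0.14, and PSPC1, paraspeckle component 1, 0.19; PSPC1 had an adjusted p = 0.0502 by edgeR without shSLC1A5 replicate 3. HNRNPK, which is needed for paraspeckle assembly, fell by 0.10 on the log2 scale, a value of -0.03 that did not pass with the GC correction. Of 7 other nuclear or regulatory long noncoding RNAs tested, 1 fell and 0 rose: NORAD, a decoy for Pumilio proteins, averaged 73.6 FPKM in shSLC1A5 and 78.4 FPKM in shControl (log2 fold change -0.10; -0.04 and not past the threshold with the GC correction). With the GC correction 0 fell and 1 rose, LINC01578 (0.16, edgeR adjusted p = 0.049).

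Of the 6 snoRNA hosts, GAS5 and SNHG5 were lower in shSLC1A5, and SNHG12 and EPB41L4A-AS1 had the highest fold changes without passing the threshold. GAS5 (chr1:173858559-173868882, minus strand), known as an RNA that accumulates in growth-arrested cells, had 20.2, 19.1 and 21.0 FPKM in shSLC1A5 and 21.7, 21.8 and 22.3 FPKM in shControl. The groups did not overlap, by a gap smaller than the spread in shSLC1A5; the level decreased by 8.98% (95% interval of the change -14.2% to -3.5%; log2 fold change -0.14, SE 0.038). GAS5 passed in 8 of 16 alternative settings; it did not pass with the GC correction (-0.06), without shControl replicate 3 (-0.13) or without shSLC1A5 replicate 2 (-0.10), among others. SNHG5 (chr6:85650491-85678754, minus strand) had 6.49, 6.61 and 6.50 FPKM in shSLC1A5 and 7.34, 7.23 and 7.69 FPKM in shControl. It decreased by 12.6% with no overlap (95% interval of the change -17.0% to -7.98%; log2 fold change -0.19, SE 0.034).

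The other 4 hosts did not pass without the GC correction; with it ZFAS1 (-0.18), SNHG1 (0.14) and EPB41L4A-AS1 (0.21) passed and SNHG12 (0.07) did not. ZFAS1 (chr20:49278178-49295738, plus strand), which starts beside ZNFX1 on the opposite strand, had 11.3, 10.3 and 10.8 FPKM in shSLC1A5 and 12.1, 10.9 and 11.9 FPKM in shControl, which overlap (log2 fold change -0.12, SE 0.051). SNHG1 (chr11:62851984-62855953, minus strand) had 28.9, 29.5 and 29.8 FPKM in shSLC1A5 and 26.5, 27.5 and 29.1 FPKM in shControl, which also overlap (0.07, SE 0.034). SNHG12 (chr1:28578538-28581878, minus strand) had 4.50, 4.40 and 4.08 FPKM in shSLC1A5 and 3.74, 3.90 and 3.90 FPKM in shControl, with no overlap (0.15, SE 0.065). The groups of EPB41L4A-AS1 (chr5:112160526-112164818, plus strand) overlapped, at 4.35, 4.65 and 4.87 FPKM in shSLC1A5 and 4.37, 4.08 and 3.95 FPKM in shControl (0.15, SE 0.071). ZFAS1 also passed with DESeq2 (-0.12), without shControl replicate 2 (-0.17) or shSLC1A5 replicate 1 (-0.16), and SNHG1 without shControl replicate 3 (0.11). Across the 6 hosts the change thus lay between -12.6% (SNHG5) and 11.3% (SNHG12).

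The snoRNAs themselves were hardly measured. A snoRNA has no poly(A) tail, and of 413 snoRNA rows, 106 were listed at exactly 1 count in every library, among them SNORD25 and 5 other snoRNAs of SNHG1 and SNORD50B of SNHG5. SNORD12C of ZFAS1 had 38, 39 and 32 counts in shSLC1A5 and 23, 27 and 26 counts in shControl (log2 fold change 0.36, edgeR adjusted p = 0.329), and SNORD12B of the same host had 4, 8 and 17 counts in shSLC1A5 and 16, 16 and 11 counts in shControl (-0.71, edgeR adjusted p = 0.3). SNORD99 of SNHG12 had 10, 7 and 8 counts in shSLC1A5 and 11, 16 and 14 counts in shControl (-0.87, edgeR adjusted p = 0.113), and SNORA13 of EPB41L4A-AS1 had 5, 14 and 13 counts in shSLC1A5 and 8, 9 and 9 counts in shControl. Fragments of an unspliced host also cover these rows and cannot be told apart from those of the snoRNAs.

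One snoRNA of each of 4 hosts is shown, since these are the products for which the hosts are named (GRCh38, sequences of the GENCODE 29 transcripts, strand of the host). The capitals mark the C box TGATGA and the D box CTGA of the first 3, which guide methylation, and the ACA box of SNORA13, which belongs to the class that guides pseudouridylation.
SNORD12C (in ZFAS1, chr20:49278940-49279028): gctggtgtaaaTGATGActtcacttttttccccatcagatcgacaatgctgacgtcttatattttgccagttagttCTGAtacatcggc
SNORD25 (in SNHG1, chr11:62855564-62855632): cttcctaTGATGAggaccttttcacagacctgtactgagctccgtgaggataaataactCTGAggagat
SNORD50B (in SNHG5, chr6:85677589-85677658): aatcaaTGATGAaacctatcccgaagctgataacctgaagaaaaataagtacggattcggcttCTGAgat
SNORA13 (in EPB41L4A-AS1, chr5:112161485-112161617): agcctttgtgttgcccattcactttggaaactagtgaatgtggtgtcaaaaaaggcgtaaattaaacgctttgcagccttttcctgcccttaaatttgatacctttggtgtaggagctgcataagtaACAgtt

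Host genes often start with a C followed by a run of C and T, the 5′ terminal oligopyrimidine (TOP) that ties translation of many messages to mTORC1. The RefSeq starts of SNHG5, SNHG12 and ZFAS1 are shown because these 3 carry both such a run and the letters TATATAA shortly before it, and that of SNHG1 because it carries neither in full. Each window runs from 50 bases before the start to 50 after it (GRCh38.p14, strand of the gene), with TATATAA and the C or T letters from the start base onward in capitals.
SNHG5 (chr6:85678684-85678783): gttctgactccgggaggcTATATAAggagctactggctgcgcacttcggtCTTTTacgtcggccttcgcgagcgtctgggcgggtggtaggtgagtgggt
SNHG12 (chr1:28581824-28581923): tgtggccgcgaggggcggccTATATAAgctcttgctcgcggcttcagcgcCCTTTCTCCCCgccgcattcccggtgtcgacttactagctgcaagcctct
ZFAS1 (chr20:49278592-49278691): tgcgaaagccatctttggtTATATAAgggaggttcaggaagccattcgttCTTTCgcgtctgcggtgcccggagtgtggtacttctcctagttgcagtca
SNHG1 (chr11:62855836-62855935): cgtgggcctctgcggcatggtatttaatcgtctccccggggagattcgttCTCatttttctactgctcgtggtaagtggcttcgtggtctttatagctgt

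Of all 35116 windows, 0.672% held TATATAA on the strand of the gene in the 50 bases before the start, against 3 of the 6 host members and 0 of 20 windows of other host genes. A C at the start followed by 3 letters that are each C or T was found in 5.45% of all windows, in the same 3 host members and in 6 of the 20 other host windows. The 3 members with both did not move alike, with log2 fold changes of -0.19 (SNHG5), -0.12 (ZFAS1) and 0.15 (SNHG12). The deposited table starts ZFAS1 464 bases and GAS5 163 bases from the RefSeq start, and SNHG5 and SNHG12 21 and 5 bases from it, so the windows hold for the RefSeq models.

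Of 25 further host genes found in the table, 18 were tested: 6 rose, 1 fell and 11 did not pass, beside 20.2% of all tested genes higher and 19% lower, with a median log2 fold change of 0.15 against -0.02 for the 6 hosts above and -0.01 for all tested genes. SNHG19 had 11.8, 10.9 and 12.4 FPKM in shSLC1A5 and 6.02, 5.70 and 6.09 FPKM in shControl, with a wide gap between the groups (log2 fold change 0.96, SE 0.16, edgeR adjusted p = 0.000681). SNHG4, SNHG6, SNHG32 and SNHG29 rose by 0.35, 0.30, 0.23 and 0.14 on the log2 scale. SNHG7 rose by 0.32, but its value was 0.02 and did not pass with the GC correction. CYTOR, the host that fell (-0.19), was named after its values were seen, and its value was -0.14 (adjusted p = 0.0585 by edgeR) with the GC correction.

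**Figure D4:**
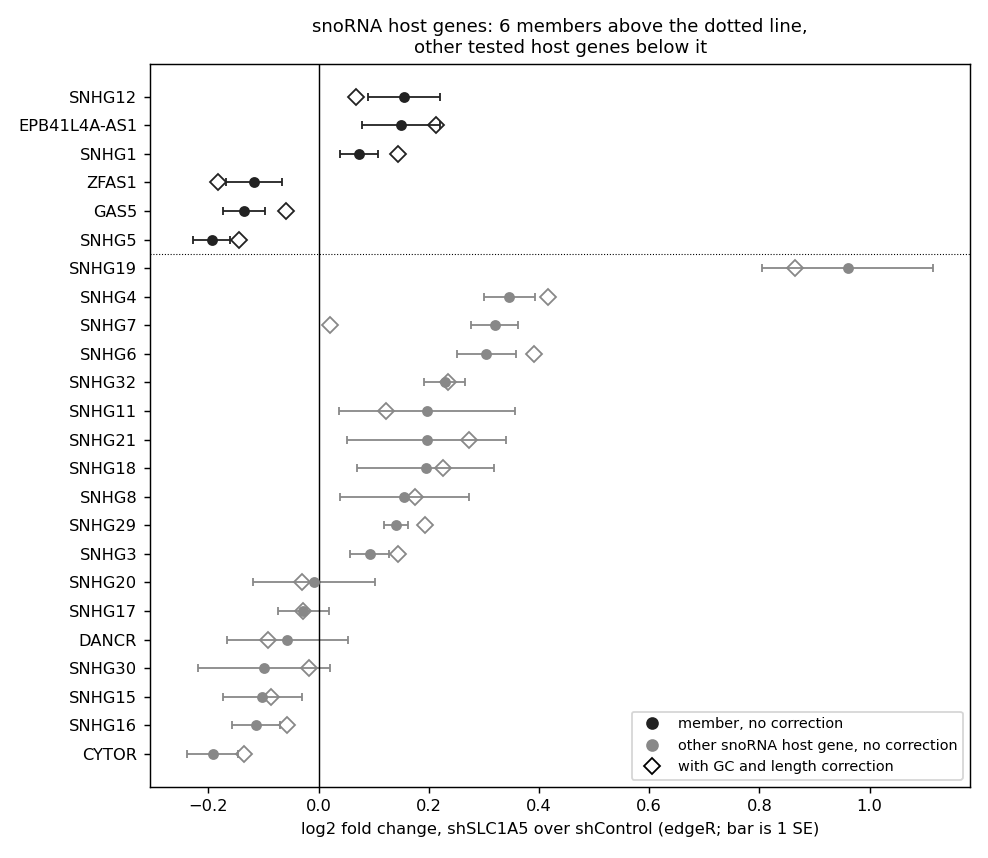
Log2 fold change of shSLC1A5 over shControl (horizontal axis; circles with 1 SE, open diamonds with GC and length corrected) for the 6 snoRNA host members above the dotted line and 18 other tested host genes below it. The members lie between -0.19 and 0.15, SNHG19 stands at 0.96 and SNHG7 is at 0.32 without and 0.02 with the GC correction.

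Lists of genes tied to the fate of host transcripts differed in their directions. Of 17 tested translation factors and other coding genes with a TOP start, 14 fell, 2 rose and 1 did not pass (median log2 fold change -0.14). Over all tested genes 20.2% were higher and 19% lower. With the GC correction 12 of the 17 fell and 1 rose. EEF1A1, the elongation factor that brings aminoacyl-tRNA to the ribosome, averaged 994.4 FPKM in shSLC1A5 and 1188 FPKM in shControl (log2 fold change -0.27, edgeR adjusted p = 1.18e-07), and NPM1, a nucleolar chaperone, fell by 0.21 on the log2 scale. Of 14 tested factors of nonsense-mediated decay, 1 rose and 3 fell, and with the GC correction 0 rose and 1 fell: SMG5, an adaptor of the pathway, fell by 0.16, and the helicase UPF1 rose by 0.27, a value of 0.05 that did not pass with the GC correction. Of 8 tested coding transcripts known to be degraded by this pathway, 4 fell and 1 rose, among them ATF3, a stress-induced transcription factor (-0.66), GADD45A, a growth arrest protein (-0.50), and ATF4, the amino acid response factor (-0.18). Of 13 tested proteins of snoRNA particles, 3 fell and 1 rose (20.2% of all tested genes were higher and 19% lower), and with the GC correction 2 fell and 0 rose; DKC1, the pseudouridine synthase, fell by 0.18.

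Genes on the other strand or beside the members were read with the caution that the strand setting of the counting is not known. ZFAS1 overlaps ZNFX1 by 249 bases on the opposite strand, and ZNFX1 had a log2 fold change of -0.03 (edgeR adjusted p = 0.354), and of -0.08 with the GC correction, where it passed (edgeR adjusted p = 0.0243). EPB41L4A-AS1 lies inside EPB41L4A, which had at most 15 counts in a library, beside 1026 to 1430 counts of the antisense RNA. GAS5 overlaps ZBTB37 by 801 bases and SNHG12 overlaps TRNAU1AP by 8 bases, each on opposite strands.

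Members on chromosome 11 and the genes beside them were compared because 5 of the 10 members lie on that chromosome. Of its 703 tested genes, 178 were higher and 131 lower, beside 20.2% of all tested genes higher and 19% lower, with a median log2 fold change of 0.01; with the GC correction 87 were higher and 112 lower. The nearest tested genes on either side of MIR210HG, RASSF7 and PHRF1, had log2 fold changes of 0.28 and 0.35 without, and of -0.07 and 0.08 with, the GC correction. Likewise FRMD8 beside NEAT1 had 0.25 without and 0.03 with it. MIR210HG with 1.32 and NEAT1 with 0.43 stayed higher with the correction than these neighbours.

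Fold changes over all genes followed GC content, which touches the members unequally. The median log2 fold change was -0.08 over tested genes with a GC content under 40% and 0.26 over those of 60% or more. H19, MIR210HG, SNHG12 and ZFAS1 have transcripts of 63.4%, 58.3%, 56.6% and 55.7% GC, and the other 6 members of 40.3% to 47.1%. With the GC correction the log2 fold changes were 1.93 for H19, 1.32 for MIR210HG, 0.43 for NEAT1 and 0.36 for MALAT1. Among the hosts GAS5 moved to -0.06 and no longer passed, SNHG5 had -0.14 and SNHG12 0.07, while ZFAS1 (-0.18), SNHG1 (0.14) and EPB41L4A-AS1 (0.21) then passed. With it the hosts ranged from -0.18 to 0.21, still below the other 4 members. The cause of the trend was not tested.

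**Figure D5:**
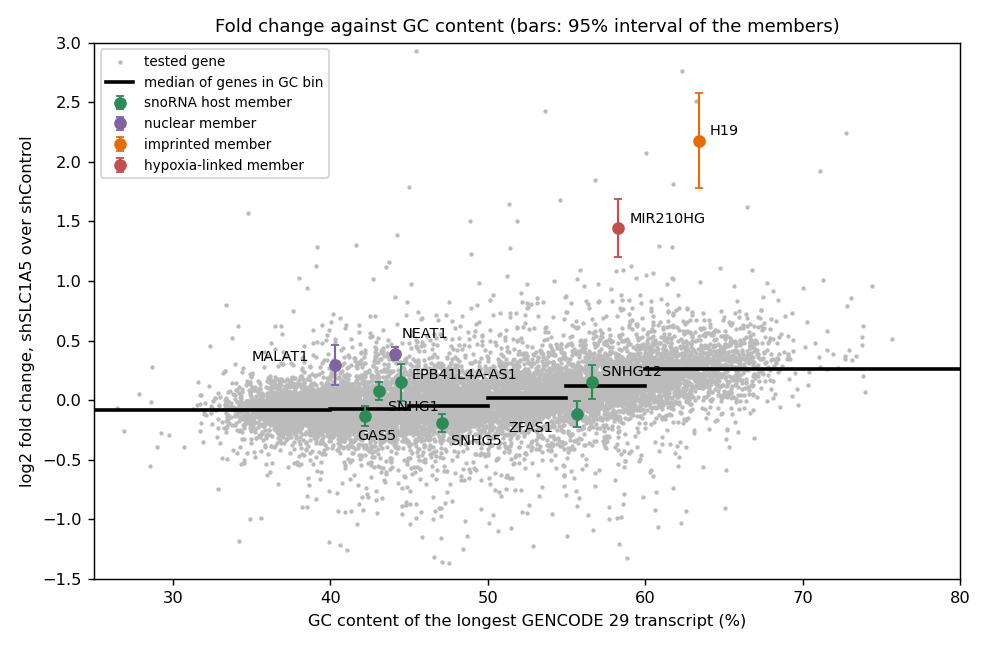
Log2 fold change of shSLC1A5 over shControl (vertical axis) against the GC content of the longest GENCODE 29 transcript (horizontal axis, %) for tested genes (grey; those beyond the axes are not drawn), with the median of each GC bin (black) and the members with 95% intervals. Medians run from -0.08 below 40% to 0.26 at 60% and above, and H19 (2.18) and MIR210HG (1.44) stand far above the median of their bins.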

How the data were processed

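RNA of 6 T98G libraries was extracted with TRIzol, captured on oligo(dT) beads and sequenced as paired ends, per the labels' protocols. fastp, HISAT2 and StringTie were used, per the submitters' processing notes. Not given in the sources used here are the genome build, annotation, strand setting and treatment of multiply mapped reads. The authors deposited 1 table with counts per gene, taken as raw, and FPKM, scaled by the authors to gene length and library size, per the file headers. Of its 35750 genes, 34674 have an ID in GENCODE 29, and 99.97% of these lie at the same place on GRCh38.

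Counts were tested with edgeR 4.0.16 (R 4.3.3): TMM scaling, group as the only term, quasi-likelihood F tests, a filter of 1 FPKM on the mean of the 6 libraries, and Benjamini-Hochberg adjustment over all 11841 tested genes at 0.05. The standard error is the log2 fold change divided by the square root of F. Only this main fit was tried on simulated counts, which held no trend with GC content or length. The correction and the alternatives below were not tried in that way. GC content and length of the longest transcript, known for 99.7% of tested genes, were corrected by loess (span 0.3) offsets. Alternatives were median-of-ratios scaling, DESeq2 1.42.0, limma 3.58.1 on log2(FPKM + 1) and log2(FPKM + 0.1), other filters, quantile normalization, a replicate block and omission of each library. Replicate pairs differed by 9.84 to 16.7 times counting variance per gene, so no pair looked like 1 library under 2 names.

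The members and gene lists were chosen with earlier results of these data known. Genes named beyond the members are, per list, up to 4 of the highest mean FPKM and up to 4 of the largest change past the threshold, overlapping rows and the 3 nearest profiles; several are given only in counts. Nearest neighbours on the chromosome, IGF2, CDKN1C and CYTOR were added after values were seen; 1 neighbour is not reported here.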

Additional observations from a re-analysis of the deposited data

How the results depend on the processing

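Given as a description, over the alternatives that gave a value all 10 members kept their direction, and H19, MIR210HG, NEAT1 and SNHG5 passed the threshold in each; a filter of 5 FPKM leaves out H19, MIR210HG, SNHG12 and EPB41L4A-AS1. The log2 fold change of H19 ranged from 0.98 (limma on log2(FPKM + 1), which shrinks low levels by construction) to 2.26, that of MIR210HG from 1.16 to 1.54, that of NEAT1 from 0.36 to 0.43 and that of SNHG5 from -0.21 to -0.14. GAS5 did not pass with limma at a pseudocount of 1 (-0.12) or 0.1 (-0.12), without a filter (-0.14), with quantile normalization (-0.12) or with the GC and length correction (-0.060, with the block -0.060), and ranged from -0.17 to -0.10 with a library left out. MALAT1 did not pass with limma at a pseudocount of 1 (0.29) or 0.1 (0.30), without a filter (0.29) or with quantile normalization (0.32), and ranged from 0.17 to 0.37 with a library left out, each time past the threshold. SNHG1 passed with a filter of 5 FPKM (0.091) and with the correction (0.14, with the block 0.15), and ranged from 0.047 to 0.11 with a library left out. SNHG12 passed with limma (0.14 and 0.16), EPB41L4A-AS1 with the correction (0.21), and ZFAS1 with DESeq2 (-0.12), the replicate block (-0.12) and the correction (-0.18, with the block -0.18), ranging from -0.17 to -0.078 with a library left out. The causes were not tested.

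The count of genes past the threshold was 4641, 3120 with the correction, 2998 with the correction and the block, and 3863 to 4081 with a library left out; that of hypoxia-linked noncoding genes was 2, 1 without a filter, and 3 with DESeq2, the block, the correction, both, and without shSLC1A5 replicate 1 or 2, and of other host genes stayed between 6 and 9. The summed share of the members in shControl was 0.156% when mitochondrially encoded genes were left out of the total. With the correction, alone or with the block, RASSF7 turned to -0.072 and -0.067 and CD81 to -0.0225 and -0.0226; with quantile normalization ZNFX1 was 0.000489. Replicate numbers did not pair the libraries (correlations of same-numbered deviations -0.151, 0.0356 and -0.0343; not every library correlated best with its own number), and with the replicate block 4470 genes and 7 members passed. Of the snoRNA rows, SNORD12C and SNORD99 passed with limma (0.32 and -0.59 at a pseudocount of 1), and SNORD99 with quantile normalization (-0.92). Low counts limit MIR210, with 2 to 24 per library, and the snoRNA rows.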
